A study of Homo sapiens with 8 samples.

Results

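The response to serum was measured in U2OS cells, an established human osteosarcoma line, that overexpressed the actin mutant G13R. It was read as the 2 libraries from serum-stimulated G13R cells against the 2 from G13R cells in normal growth, 4 of the 8 libraries of the series. Every gene with at least 1 FPKM in 2 or more of the 8 libraries was a member, which gave 12996 of the 22504 genes in the deposited table. FPKM is the number of sequenced fragments scaled to transcript length and to the mapped fragments of the library. The other 4 libraries came from U2OS cells that expressed GFP as the control, again 2 in normal growth and 2 after serum. All 4 groups thus share the host line and carry an introduced protein, and poly(A)-selected RNA was sequenced in each. The labels do not give the actin gene that carries the mutation, the vector or its promoter, or whether the cells were a clone. They also leave out the serum dose, how long it was applied, and whether serum was first withdrawn. Nor do they say that the 2 libraries of a group came from separate cultures, so the p-values measure only the spread between libraries, which may be technical. The title of the series places the comparison in a study of nuclear actin and inducible transcription, so the question is which genes serum still moves when the G13R mutant is present.

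Serum carries growth factors and lipids. Growth factors switch on receptor tyrosine kinases and the ERK kinases, which act through serum response factor (SRF) and its ternary complex partners on immediate-early genes such as FOS and EGR1. SRF has another partner, MRTF, which unpolymerised actin holds inactive. G13R is known as a mutant that does not polymerise, so it would add to that monomer pool, which was not measured here. Feedback genes, whose products dephosphorylate the kinases or destroy the early transcripts, are induced as well, and genes of metabolism, matrix and growth later.

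Summed FPKM lay between 496166 and 559496 in the 8 libraries, and 12065 to 12568 genes reached 1 FPKM in each. Replicates correlated across tested genes with r = 0.989 in G13R normal growth and 0.987 in G13R serum. Differences of at least 2-fold in FPKM + 1 within a pair were seen for 102 and 91 genes, against 87 in GFP normal growth and 186 in GFP serum. Low genes can differ more in FPKM without being counted. The mesenchymal markers fitted the labelled line in part: 7 of 9 reached 1 FPKM, with VIM at 888.3 to 1083 FPKM in the G13R libraries, while the collagen gene COL1A2 and the osteoblast factor gene SP7 were near 0. Their summed level was 1320.0 to 1420.0 FPKM in G13R normal growth and 1550.0 to 1640.0 FPKM after serum. Leukocyte markers (0 of 5 at 1 FPKM) summed to 0.599 to 0.7 FPKM in normal growth and 0.567 to 0.784 FPKM after serum. Endothelial markers (0 of 5) summed to 0.922 to 1.09 and 0.581 to 0.773 FPKM, with PECAM1 at 0 in all 8 libraries. Epithelial markers (4 of 6 at 1 FPKM in some library of the 8) summed to 4.98 to 7.94 and 3.42 to 4.51 FPKM. Neural markers (3 of 5) summed to 6.67 to 6.75 FPKM in normal growth and 9.01 to 10.5 FPKM after serum. MAP2, a microtubule protein, was the neural member that rose. The part of these marker levels in the results was not tested.

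Serum raised 1074 of the 12996 genes, which is 8.26%, and lowered 601, which is 4.62%, at an adjusted p under 0.05 (limma on log2(FPKM + 1)). Together 1675 genes, or 12.9%, were called. The rises were larger than the falls: 241 genes rose and 54 fell by at least 2-fold, and 16 rose and 3 fell by at least 4-fold. The median log2 fold change was 0.73 among genes called higher, -0.49 among genes called lower and 0.04 over all tested genes. Genes called lower had a median of 45.1 FPKM over the 4 G13R libraries. The median was 15.8 FPKM for genes called higher and 12.1 FPKM for all tested genes. Changes under 0.5 in log2 size made up 315 of the 601 falls and 200 of the 1074 rises. The log2(FPKM + 1) scale understates changes of low genes, and its part in this contrast was not tested. Both serum libraries lay above both normal growth libraries for 4462 genes (34.3%) and below them for 3428 (26.4%). The groups did not overlap for any of the 1675 called genes. Separation described below for a called gene therefore adds nothing to its call. Of the tested genes, 11615 held at least 1 FPKM in all 4 G13R libraries. Another 198 reached 1 FPKM in both serum libraries and in neither normal growth library, and 41 of these were called higher. The reverse held for 78 genes, of which 23 were called lower. Just inside the 1 FPKM limit were SCARNA10, whose second-highest value was 1.00078 FPKM, and CA8 at 1.00455 FPKM, and just outside it were RPA4 at 0.999593 FPKM and FAM131B at 0.999996 FPKM. Reduced fits left out, in turn, normal growth replicate 1, normal growth replicate 2, serum replicate 1 and serum replicate 2. Each has 1 library in a G13R group, and that loss of replication by itself lowers the number of calls. Wherever 4 counts or 4 adjusted p-values of such reduced fits are listed, they stand in that order. Counts in the lists that follow are to be read against the 8.26% of all tested genes called higher and the 4.62% called lower. Those shares belong to the fit of all 8 libraries. In the reduced fits fewer of all tested genes passed in both directions. A smaller list count there is not by itself a trait of that list, nor a lost call a trait of that gene. The spread of a gene was shared by all 4 groups, so unequal GFP libraries also raise the p-value of its G13R change. DUSP1 and NR4A1, both named below, were at 90.2 and 208.4 FPKM and at 101.2 and 244.6 FPKM in the GFP serum libraries.

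**Figure D1:**
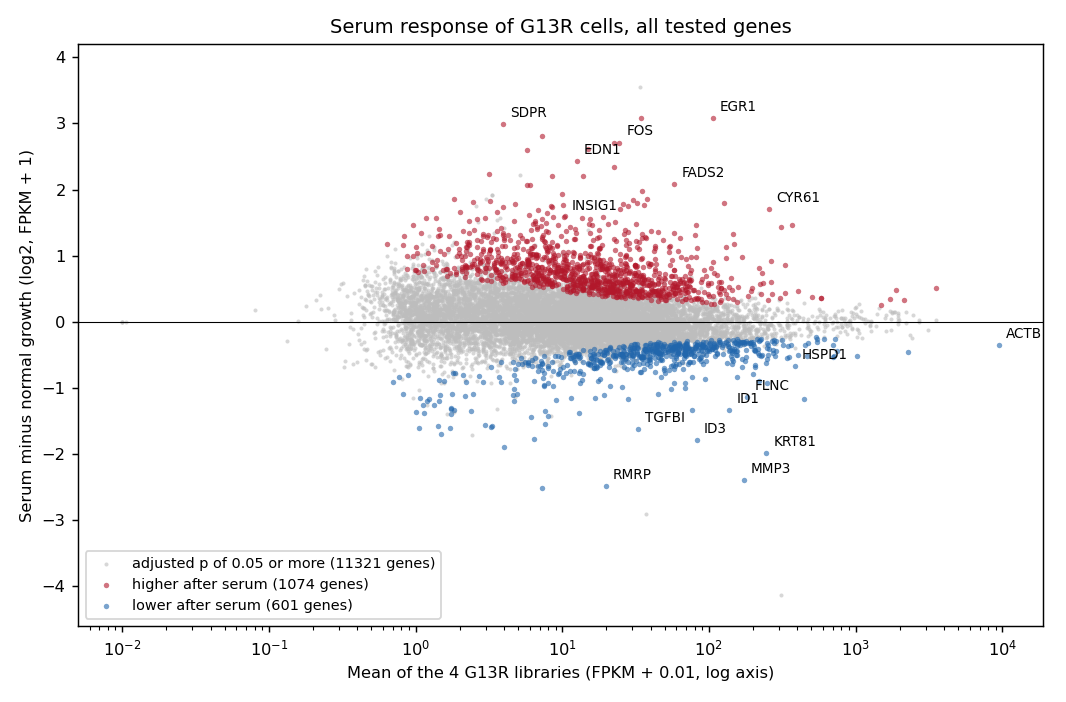
Each point is 1 of the 12996 tested genes, with its mean FPKM over the 4 G13R libraries on a log axis and its serum minus normal growth difference on the log2(FPKM + 1) scale. The 1074 genes called higher are red and the 601 called lower are blue. The rises reach farther from 0 than the falls, and the blue points lie farther to the right, at medians of 45.1 against 15.8 FPKM.

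The early transcription factors held the gene of largest named rise. EGR1, a zinc finger factor and a textbook SRF target (chr5:137801179-137805004 in hg19), stood at 22.7 and 20.2 FPKM in the normal growth libraries and 170.5 and 209.5 FPKM in the serum libraries. The groups lay far apart, with a log2 fold change of 3.08 ± 0.16 (SE; adjusted p = 3.45e-05). Because EGR1 leads the response, the 250 bases before its start are printed from the RefSeq promoter table (GRCh38.p14, chr5:138465229-138465478, plus strand), with matches to the CArG box, the letters that SRF binds, in capitals.
EGR1: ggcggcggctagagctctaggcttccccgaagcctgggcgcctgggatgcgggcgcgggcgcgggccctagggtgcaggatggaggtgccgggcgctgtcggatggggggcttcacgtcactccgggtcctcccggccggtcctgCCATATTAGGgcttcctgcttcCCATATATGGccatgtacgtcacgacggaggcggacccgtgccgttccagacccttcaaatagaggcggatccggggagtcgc
The matches begin at -105 and -83 relative to the start. Of 35116 promoters in the table, searched on both strands from 250 bases before to 50 after the start, 454 (1.29%) held a CArG box. Among the 10 early factors called higher in the next 2 lists, 8 had a promoter in the table, and only that of EGR1 held the box, which is a description of these windows and not of where SRF binds.

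FOS, the AP-1 subunit that pairs with JUN proteins (chr14:75745477-75748933), was at 4.84 and 6.7 FPKM in normal growth and 37.7 and 48.7 FPKM after serum. Both serum values were several times both normal growth values, and the log2 fold change was 2.71 ± 0.30 (adjusted p = 0.000736). JUN, its dimer partner, went from 49.2 and 45.6 to 89.9 and 93.9 FPKM, a rise of 0.94 ± 0.13 (adjusted p = 0.00198). The 2 libraries of each condition sat close together for JUN and far from the other condition. JUNB rose by 1.15 ± 0.23 and JUND by 1.19 ± 0.25, but leaving out a G13R library ended the JUND call in all 4 fits (adjusted p = 0.105, 0.0556, 0.112 and 0.0658) and the JUNB call in all but that without serum replicate 1 (adjusted p = 0.059, 0.081, 0.0495 and 0.0984). FOSB, the close relative of FOS, was at 2.01 and 2.6 FPKM in normal growth and 5.57 and 3.23 FPKM with serum, and its difference of 0.68 ± 0.32 was not called (adjusted p = 0.192). Of the 12 AP-1 and ATF factors tested, 4 rose and 2 fell (FOSL2 and BATF3), with a median of 0.49 against 0.04 for all tested genes. Leaving out the G13R libraries in turn left 2, 2, 3 and 2 rises and 0, 0, 0 and 0 falls.

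Of 18 EGR, NR4A and other early factors tested, 6 rose and 0 fell, at a median of 0.38, and 3, 3, 3 and 3 rose in the 4 fits that lack a G13R library. IER3, which dampens cell death, rose from 34.2 and 30.5 to 79.3 and 88.4 FPKM (1.35 ± 0.20, adjusted p = 0.00317), with no overlap. IER2, another immediate-early gene, rose from 41 and 44.8 to 79.1 and 92 FPKM (0.98 ± 0.14, adjusted p = 0.00286). NR4A1, an orphan nuclear receptor, was at 20.6 and 23 FPKM in normal growth and 47.4 and 70.6 FPKM after serum. Its serum libraries were both higher but unequal, and the rise of 1.37 ± 0.32 (adjusted p = 0.0229) was lost without each G13R library (adjusted p = 0.122, 0.0888, 0.0555 and 0.157). Of 12 Kruppel-like factors, 2 rose and 0 fell, with 1, 1, 1 and 2 rises in the reduced fits. KLF6, a zinc finger factor induced by growth signals, went from 18.3 and 13.4 to 54.8 and 56.7 FPKM (1.77 ± 0.14, adjusted p = 9.88e-05), while the smaller KLF13 rise of 0.42 ± 0.12 was lost in 11 of 16 alternatives, all 4 reduced fits included (adjusted p = 0.103, 0.208, 0.247 and 0.111). MYC, the growth regulator, was at 100.3 and 101 FPKM in normal growth and 119.8 and 109.9 FPKM with serum (0.19 ± 0.12, adjusted p = 0.342), and SRF itself at 22.9 and 24.9 FPKM in normal growth and 24 and 23.9 FPKM with serum (0.01 ± 0.11, adjusted p = 0.977). Neither passed the test.

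Some feedback genes rose. DUSP1, DUSP2 and DUSP5 encode phosphatases that act on MAP kinases, and Sprouty proteins block signalling from receptors to ERK. Of 14 such genes tested, 6 rose and 0 fell at a median of 0.24, and 3, 3, 4 and 2 rose without each G13R library in turn. DUSP5, a nuclear phosphatase specific for ERK, stood at 14 and 13.3 FPKM in normal growth and 32.1 and 34.1 FPKM after serum. The pairs were tight and well apart (1.22 ± 0.11, adjusted p = 0.000221). DUSP1 rose by 1.27 ± 0.29 and DUSP2 by 1.24 ± 0.23, with adjusted p in the reduced fits of 0.0926, 0.0963, 0.0787 and 0.12 for DUSP1, lost in all, and 0.0687, 0.0517, 0.0424 and 0.0839 for DUSP2, lost in all but that without serum replicate 1. SPRY2 rose from 7.19 and 6.25 to 13.7 and 14 FPKM (0.95 ± 0.16, adjusted p = 0.00526), a call lost in 1 of 16 alternatives, that without serum replicate 2 (adjusted p = 0.0508).

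Among 12 regulators of mRNA decay, 7 rose and 1 (BTG3) fell, at a median of 0.62, the third-highest median of the 37 lists. Without each G13R library in turn 3, 3, 3 and 3 rose and 0, 0, 0 and 0 fell. The 3 members of the ZFP36 family, which bind AU-rich elements and recruit the deadenylase to early-response transcripts, all rose and kept their calls in all 16 alternatives. ZFP36 went from 3.31 and 3.27 to 11.8 and 15.2 FPKM (1.75 ± 0.20, adjusted p = 0.000933). ZFP36L1, the most abundant of them per length, went from 82.3 and 82.2 to 221 and 196 FPKM (1.33 ± 0.11), and ZFP36L2 from 18.3 and 18.9 to 43.6 and 46.2 FPKM (1.23 ± 0.10). For none of the 3 did any serum library fall within the normal growth range. Of 15 circadian clock genes 1 rose, a smaller share than the 8.26% over all tested genes. It was NPAS2, a partner of the clock factor BMAL1, which went from 8.29 and 9.63 to 31.1 and 26.9 FPKM (1.59 ± 0.13, adjusted p = 0.000109).

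Several secreted signals were among the largest rises. TNFRSF11B encodes osteoprotegerin, the decoy receptor that bone-forming cells secrete against RANKL (chr8:119935796-119964439), and it stood at 5.36 and 7.49 FPKM in normal growth and 51.9 and 71.8 FPKM after serum. That was a rise of 3.08 ± 0.21 (adjusted p = 4.44e-05), next to that of EGR1 in size. EDN1, the vasoconstrictor endothelin, rose from 3.6 and 2.89 to 20.2 and 23.5 FPKM (2.43 ± 0.16, adjusted p = 4.11e-05). BMP4, a bone morphogenetic protein, rose from 14.2 and 11.3 to 43.5 and 52.5 FPKM (1.83 ± 0.24, adjusted p = 0.00175). In all 3 the serum libraries lay above the normal growth libraries with a wide gap. CSF2, the granulocyte-macrophage growth factor, rose from 0.19 and 0.946 to 4.59 and 4.15 FPKM (1.82 ± 0.25, adjusted p = 0.00216), and was the 1 gene called higher of 20 cytokine and SOCS genes, a share below the 8.26% over all tested genes. IL11, called lower in that list, went from 14.2 and 12.6 to 7.88 and 8.31 FPKM (-0.66 ± 0.15), a call lost without each G13R library (adjusted p = 0.126, 0.0608, 0.118 and 0.0951). CCL3L3, a chemokine whose reads can be shared with its near-identical neighbours, was listed at 0.342 and 0.576 FPKM in normal growth and 6.38 and 5.4 FPKM with serum (2.24 ± 0.33, adjusted p = 0.00292).

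Of 21 EGF and FGF ligands and receptors, 2 rose and 1 fell, with a median of -0.01. These shares are close to the 8.26% and 4.62% over all tested genes, and the reduced fits had 1, 1, 1 and 1 rises and 0, 0, 1 and 0 falls. AREG, the EGF receptor ligand amphiregulin, rose from 5.76 and 5.42 to 10.7 and 12.8 FPKM (0.94 ± 0.15, adjusted p = 0.00355), with the serum pair clear of the normal growth pair. ERBB2, a receptor of that family, rose by 0.59 ± 0.16 and the ligand gene NRG1 fell with -0.43 ± 0.12, and both calls were lost without each G13R library (adjusted p = 0.0961, 0.184, 0.25 and 0.0653 for ERBB2 and 0.171, 0.11, 0.123 and 0.186 for NRG1). In the IGF axis 3 of 9 genes rose and 0 fell, at a median of 0.40, with 1, 2, 1 and 1 in the fits that lack a G13R library. IGFBP7, a secreted IGF-binding protein, rose from 12.4 and 12 to 40.4 and 46.9 FPKM (1.75 ± 0.22, adjusted p = 0.00141). IGFBP5 was at 2.2 and 4.73 FPKM in normal growth and 10.3 and 11.1 FPKM with serum (1.45 ± 0.35), and its call was lost without normal growth replicate 1 or either serum replicate (adjusted p = 0.157, 0.03, 0.106 and 0.122 over the 4 fits).

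The remaining large rises came from varied functions. SDPR (also named CAVIN2), a coat protein of caveolae, was listed at 0 and 0.213 FPKM in normal growth and 7.33 and 8.11 FPKM after serum, a difference of 2.98 ± 0.21 (adjusted p = 5.33e-05). It is 1 of 8 called genes listed at 0 in some G13R library, so no fold is given. PI3, the elastase inhibitor elafin, rose from 4.38 and 6.38 to 38.7 and 41.1 FPKM (2.70 ± 0.17). L1CAM, an adhesion molecule of neurons and invasive tumours, rose from 2.74 and 4.3 to 22.7 and 30.5 FPKM (2.62 ± 0.23). SORBS2, an adaptor of stress fibres, rose from 1.11 and 0.666 to 8.85 and 12.2 FPKM (2.60 ± 0.20). The homeobox repressor gene NKX3-2 rose from 2.24 and 2.6 to 14.1 and 15.3 FPKM (2.20 ± 0.16), and LBH, a developmental cofactor, from 4.49 and 4.14 to 23.9 and 22.9 FPKM (2.20 ± 0.25). S100A4, a calcium-binding protein linked to motility, rose from 11.5 and 16 to 52.6 and 59.6 FPKM (1.97 ± 0.19). All of these genes kept their calls in the 16 alternatives. That no serum library lay within the normal growth range was a condition for naming them. AKR1C1, AKR1C2 and AKR1C3, reductases of steroids, rose by 1.94 ± 0.19, 1.83 ± 0.22 and 1.38 ± 0.17, and since their sequences are alike the split of reads among them is uncertain.

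**Figure D2:**
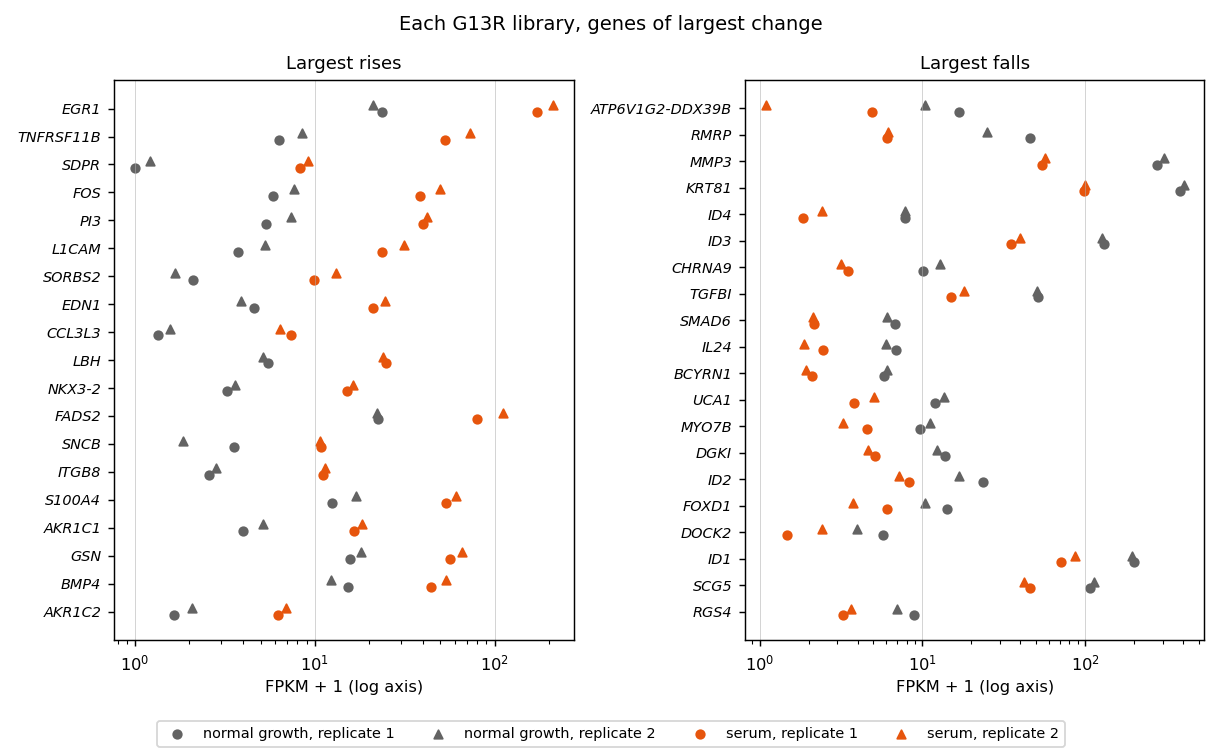
Each row is 1 of the genes of largest rise (left) or fall (right) among those shown, and each point is 1 G13R library on a log axis of FPKM + 1, grey for normal growth and orange for serum. In every row the orange and grey points are separate, which was a condition for being shown. EGR1 goes from 22.7 and 20.2 FPKM to 170.5 and 209.5 FPKM and MMP3 from 277 and 305 FPKM to 53.6 and 55.6 FPKM.

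The most complete shift in any list was that of sterol synthesis: 18 of 19 enzymes of the cholesterol pathway rose and 0 fell, with a median of 0.77 against 0.04 for all tested genes. The exception, TM7SF2, had a log2 fold change of 0.05. In the fits without a G13R library 12, 13, 12 and 12 of the 19 rose. The rises spanned the pathway, from HMGCS1 (0.69) near its start through SQLE (1.13), which oxidises squalene, to DHCR7 near its end. MSMO1, a sterol demethylase, had the largest: it was at 12.1 and 10.1 FPKM in normal growth and 36.5 and 40.2 FPKM after serum (1.70 ± 0.13, adjusted p = 0.000106). LSS, which closes the sterol rings, went from 16.4 and 16.6 to 35.4 and 41.1 FPKM (1.17 ± 0.12, adjusted p = 0.000514), and DHCR7 from 23.4 and 29.3 to 60.0 and 57.9 FPKM (1.14 ± 0.14, adjusted p = 0.00106). For MSMO1, LSS and DHCR7 both serum values were over both normal growth values, without overlap.

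Sterol synthesis is governed by SREBP factors, which are cut from the membrane when sterols are scarce and held back by INSIG proteins. Of 13 genes of sterol uptake, sensing and efflux, 5 rose and 0 fell at a median of 0.41, with 5, 5, 5 and 4 in the 4 reduced fits. INSIG1 rose from 4.83 and 4.48 to 16.2 and 15.7 FPKM (1.59 ± 0.19, adjusted p = 0.00106). STARD4, a cholesterol carrier, rose from 10.4 and 10.2 to 29.9 and 31.1 FPKM (1.48 ± 0.10, adjusted p = 5.33e-05). SREBF2, which encodes SREBP2 (chr22:42229109-42303312), was at 29.7 and 24.1 FPKM in normal growth and 56.4 and 58 FPKM after serum (1.07 ± 0.13, adjusted p = 0.00112). The serum pair of each was above its normal growth pair. The 250 bases before the SREBF2 start are shown because it was the 1 promoter, of 24 found for the 31 lipid genes called higher, with a match to the sterol regulatory element TCACNCCAC (GRCh38.p14, chr22:41832855-41833104, plus strand, match in capitals).
SREBF2: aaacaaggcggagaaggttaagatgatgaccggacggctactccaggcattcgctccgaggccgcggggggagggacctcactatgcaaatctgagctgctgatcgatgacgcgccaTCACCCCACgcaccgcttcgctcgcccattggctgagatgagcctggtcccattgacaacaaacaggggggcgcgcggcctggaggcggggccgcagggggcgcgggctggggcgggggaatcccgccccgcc
The match begins at -133, and 396 of the 35116 promoters (1.13%) held these letters on either strand.

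Fatty acid genes rose in part. Of 19 tested, 8 rose and 0 fell at a median of 0.32, and 4, 6, 4 and 5 rose without each G13R library. FADS2, a desaturase of polyunsaturated fatty acids, was at 21.4 and 21.1 FPKM in normal growth and 78.8 and 109.7 FPKM after serum (2.08 ± 0.20, adjusted p = 0.000336). SCD, the desaturase that makes oleate, rose from 37.3 and 41.5 to 79.7 and 88.1 FPKM (1.07 ± 0.10, adjusted p = 0.000343), and LPIN1, a phosphatidate phosphatase, from 21.8 and 24.9 to 44.1 and 48.9 FPKM (0.96 ± 0.12, adjusted p = 0.0011). All 3 were separate between conditions and kept their calls in the 16 alternatives. Elsewhere in metabolism the lists split. Of 22 glycolysis and hypoxia genes 4 rose and 3 fell, with NDRG1 higher (61 and 73.6 to 113 and 119 FPKM, 0.79 ± 0.12) and LDHA, the lactate-forming enzyme, lower (-0.44). The reduced fits had 1, 3, 1 and 1 rises and 1, 0, 0 and 1 falls. Of 22 genes of amino acid synthesis and the ATF4 stress programme, 1 rose and 4 fell, and in the reduced fits 0, 0, 0 and 0 rose and 2, 1, 1 and 2 fell. SLC7A5, the leucine transporter, fell from 285 and 308 to 196 and 189 FPKM (-0.62 ± 0.09, adjusted p = 0.00234).

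Matrix genes moved in both directions. MMP3, the proteinase stromelysin (chr11:102706532-102714534), was at 277 and 305 FPKM in normal growth and 53.6 and 55.6 FPKM after serum. This was the largest fall among called genes above 100 FPKM in normal growth, at -2.39 ± 0.21 (adjusted p = 0.000204). Of 14 matrix proteinases and inhibitors 5 rose and 2 fell, including MMP14, the membrane-anchored collagenase, which rose from 23.7 and 20.7 to 39.8 and 41.6 FPKM (0.85 ± 0.11, adjusted p = 0.00137). ADAMTS6, the other gene to fall, went from 24.7 and 32.3 to 12.7 and 15.3 FPKM (-0.97 ± 0.15). In the reduced fits the proteinase list had 2, 4, 4 and 2 rises and 2, 2, 2 and 2 falls. Of 22 collagens and other matrix proteins 6 rose and 3 fell, with 5, 6, 5 and 5 rises and 2, 2, 2 and 2 falls in the reduced fits. FN1, fibronectin, rose from 71.6 and 76 to 131 and 147 FPKM (0.91 ± 0.11), and THBS1, thrombospondin, from 56 and 52.6 to 115 and 102 FPKM (0.98 ± 0.09), while TNC, LOX and COL6A3 fell, with -0.71, -0.65 and -0.72. For FN1 and THBS1 the conditions were separate by a gap larger than the spread in either. Of 17 integrins and laminins 5 rose and 2 fell, with 2, 4, 2 and 3 rises and 1, 1, 1 and 1 falls in the reduced fits. ITGB8 rose from 1.59 and 1.82 to 10.1 and 10.4 FPKM (2.06 ± 0.24), and ITGA5, the fibronectin receptor chain, fell from 49.5 and 47.1 to 31.7 and 30.8 FPKM (-0.61 ± 0.10).

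YAP and TEAD drive genes in spread, tense cells. Of 19 of their targets 5 rose and 0 fell, at a median of 0.06, and 2, 2, 4 and 2 rose in the reduced fits. The rises were led by 2 matricellular proteins that also answer SRF. CYR61 was at 125 and 113 FPKM in normal growth and 374 and 409 FPKM after serum (1.71 ± 0.11, adjusted p = 4.11e-05), and CTGF at 160.1 and 177 FPKM in normal growth and 436 and 474 FPKM with serum (1.43 ± 0.09, adjusted p = 4.11e-05). Both pairs were tight and did not overlap. ANKRD1 rose less, from 131 and 128 to 179.9 and 195 FPKM (0.53 ± 0.10), and lost its call without either normal growth replicate or serum replicate 2 (adjusted p = 0.0539, 0.0573, 0.0427 and 0.0826 over the reduced fits).

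The contractile and adhesion targets of SRF and MRTF showed no common direction. Of 31 tested, 5 rose and 4 fell, with a median of 0.06 against 0.04 over all genes. Without each G13R library in turn there were 2, 4, 2 and 2 rises and 2, 2, 1 and 1 falls. TGFB1I1 (HIC-5), a focal adhesion adaptor, rose from 2.86 and 5.59 to 15.9 and 16.3 FPKM (1.76 ± 0.21, adjusted p = 0.00111), and VCL, vinculin, from 25.4 and 26.5 to 40.2 and 45.8 FPKM (0.70 ± 0.11, adjusted p = 0.00312). FLNC, an actin crosslinker, fell from 242 and 259 to 121 and 106 FPKM (-1.13 ± 0.11, adjusted p = 0.000346). For each of these 3 the conditions did not overlap. ACTB, cytoplasmic beta-actin, was at 11245 and 10010.5 FPKM in G13R normal growth and 8676 and 7949 FPKM after serum, a fall of -0.35 ± 0.08 (adjusted p = 0.0184) that was lost without normal growth replicate 1 or either serum replicate (adjusted p = 0.129, 0.0318, 0.0672 and 0.162 over the reduced fits) and under quantile normalization. Reads of an introduced actin and of the cell's own cannot be told apart in a gene-level value, and ACTB was at 2602 and 2779 FPKM in normal growth and 2543 and 2615 FPKM with serum in the GFP libraries. FLNA, filamin A, was listed at 374 and 394 FPKM in normal growth and 478 and 0 FPKM after serum, and at 0 in 1 GFP library as well. Its difference of -4.14 ± 2.78 was not called (adjusted p = 0.354), and its listed zeros stand beside high values elsewhere, so it is not read further. RNU5E-1 was the only other gene at 0 in exactly 1 G13R library and at 10 FPKM or more in the other 3.

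Of 27 genes for actin monomer binding and nuclear actin transport, 4 rose and 0 fell at a median of 0.10, and 2, 2, 2 and 2 rose in the reduced fits. GSN, the filament-severing protein gelsolin, was at 14.6 and 17.1 FPKM in normal growth and 55.2 and 65 FPKM after serum (1.86 ± 0.17, adjusted p = 0.000221). TMSB4X, thymosin beta-4, which sequesters actin monomers, was at 189 and 201 FPKM in normal growth and 499 and 586 FPKM with serum (1.47 ± 0.15, adjusted p = 0.000431). Both serum values exceeded both normal growth values by a wide margin in GSN and TMSB4X, and both calls held in all 16 alternatives. TMSB10 and ARPC5 had smaller rises of 0.32 ± 0.08 and 0.35 ± 0.09, lost in all 4 reduced fits (adjusted p = 0.153, 0.0587, 0.13 and 0.149 for TMSB10 and 0.0539, 0.175, 0.149 and 0.126 for ARPC5).

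The 4 ID genes all fell. ID proteins bind helix-loop-helix factors and block their contact with DNA, and BMP signals through SMAD proteins induce them. Of 17 ID and BMP pathway genes 7 fell and 1 rose, at a median of -0.53, the lowest of the 37 lists, with 3, 4, 3 and 4 falls in the reduced fits. ID3 was at 129.6 and 127 FPKM in normal growth and 34.2 and 38.7 FPKM after serum (-1.79 ± 0.29, adjusted p = 0.00453), and ID4 at 6.83 and 6.83 FPKM in normal growth and 0.832 and 1.41 FPKM with serum (-1.90 ± 0.23, adjusted p = 0.00111). ID1 went from 199.7 and 193 to 69.8 and 85.2 FPKM (-1.34 ± 0.26) and ID2 from 22.6 and 15.8 to 7.28 and 6.14 FPKM (-1.37 ± 0.28). In all 4 the serum libraries lay below the normal growth libraries, but in the reduced fits the adjusted p was 0.0726, 0.0577, 0.0847 and 0.0494 for ID1 and 0.101, 0.033, 0.0589 and 0.0947 for ID2, so that each lost its call in 3 of them. The spread in these fits is shared with the GFP groups. In the 2 GFP serum libraries ID1 was at 74.7 and 158.4 FPKM and ID2 at 5.96 and 12.7 FPKM. ID3 was at 25.7 and 61.5 FPKM there, and ID4 at 0.761 and 1.53 FPKM. The part of these gaps in the lost calls was not tested. BMP4 was the gene of this list that rose. NOG, which encodes the BMP antagonist noggin, fell from 40.3 and 41.6 to 27.8 and 28.4 FPKM (-0.53 ± 0.10), a call lost in all 4 reduced fits (adjusted p = 0.0574, 0.0642, 0.0715 and 0.0666).

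Of 18 TGF-beta targets 3 rose and 4 fell, and the reduced fits had 0, 2, 2 and 0 rises and 2, 3, 3 and 2 falls. TGFBI, a matrix adhesion protein, fell from 50.2 and 49.4 to 14 and 17.1 FPKM (-1.62 ± 0.13, adjusted p = 0.000109). FST, follistatin, rose from 11.4 and 14 to 21.6 and 26.9 FPKM (0.88 ± 0.18), with adjusted p of 0.103, 0.0416, 0.0444 and 0.112 in the reduced fits. SMAD6, an inhibitor of BMP receptors, was at 5.8 and 5.02 FPKM in normal growth and 1.15 and 1.11 FPKM with serum (-1.59 ± 0.37), separate between conditions yet lost without each G13R library (adjusted p = 0.116, 0.0831, 0.104 and 0.107). Outside the lists KRT81, a hair keratin, fell from 381 and 403 to 97.4 and 98.7 FPKM (-1.99 ± 0.13, adjusted p = 4.11e-05), and SCG5, a secretory granule chaperone, from 107 and 112 to 44.8 and 41.2 FPKM (-1.33 ± 0.25), the latter lost in all 4 reduced fits (adjusted p = 0.0582, 0.0595, 0.0537 and 0.0717). RMRP and BCYRN1 are short RNAs that are not typical messengers, and their levels in poly(A)-selected RNA are uncertain: RMRP was at 44.7 and 24 FPKM in normal growth and 5.02 and 5.11 FPKM with serum (-2.48 ± 0.37). The read-through transcript ATP6V1G2-DDX39B, which shares its reads with both neighbours, had 15.7 and 9.42 FPKM in normal growth and 3.91 and 0.0885 FPKM with serum and is equally uncertain.

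Some inhibitors of the cell cycle rose. Of 21 p53 targets 6 rose and 0 fell at a median of 0.38, but leaving out serum replicate 2 left no rise (3, 3, 2 and 0 in the 4 reduced fits). CDKN1A, the CDK inhibitor p21, went from 99.1 and 92.4 to 142 and 149 FPKM (0.60 ± 0.10, adjusted p = 0.00547, and 0.0589 without serum replicate 2), and CDKN1C, the related p57, from 3.37 and 4.48 to 10.7 and 10.7 FPKM (1.25 ± 0.18, adjusted p = 0.00236). Both were separate between conditions. Of 20 genes for G1 cyclins, CDKs and their inhibitors 4 rose, and all 4 (CDKN1A, CDKN1C, CDKN2B and RBL2) restrain the cycle. In the reduced fits 3, 3, 2 and 1 of the 20 rose, with adjusted p of 0.00444, 0.147, 0.139 and 0.178 for CDKN2B and 0.0959, 0.0209, 0.0873 and 0.0826 for RBL2. Of 16 FOXO and starvation targets 5 rose and 1 (TXNIP) fell, at a median of 0.36, with 1, 2, 2 and 1 rises and 0, 0, 0 and 0 falls in the reduced fits. FBXO32 (atrogin-1), a ubiquitin ligase subunit, rose from 7.57 and 7.62 to 22.6 and 23.4 FPKM (1.48 ± 0.12, adjusted p = 0.000155).

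Of 17 interferon-stimulated genes 8 rose and 0 fell, at a median of 0.76, close below that of sterol synthesis, and 3, 4, 3 and 2 rose without each G13R library. DDX58, the RNA sensor RIG-I, was at 5.52 and 5.18 FPKM in normal growth and 12.2 and 13.9 FPKM after serum (1.14 ± 0.15, adjusted p = 0.00156), and OAS3, an oligoadenylate synthetase, at 2.81 and 2.3 FPKM in normal growth and 7.53 and 5.98 FPKM with serum (1.12 ± 0.19, adjusted p = 0.00514, and 0.0563 without serum replicate 1). The serum libraries of both were clear of the normal growth range. Of 25 autophagy and lysosome genes 5 rose and 0 fell, with a median of 0.07, and 2, 3, 3 and 2 rose in the reduced fits. CTSB, a lysosomal protease, rose from 162 and 184 to 292 and 283 FPKM (0.73 ± 0.08, adjusted p = 0.000736), and WIPI1, an autophagosome protein, from 9.14 and 8.87 to 18.3 and 21 FPKM (1.04 ± 0.15, adjusted p = 0.00235).

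Some genes of ribosome and protein production fell. Of 26 ribosome biogenesis factors, which process ribosomal RNA and assemble subunits in the nucleolus, 13 fell and 0 rose, all 26 had values below 0, and the median was -0.49. The single falls were small, and the count dropped to 2 without the low-value filter or without the intensity trend. Over all tested genes the lower calls dropped as well in those fits, from 601 to 331 and 268. Fewer members passed without each G13R library too, where fewer of all tested genes passed. NOLC1, a nucleolar chaperone, was at 68.4 and 76.6 FPKM in normal growth and 45.8 and 45.1 FPKM after serum (-0.66 ± 0.15, adjusted p = 0.0189), and RRP9 at 72.1 and 71 FPKM in normal growth and 44 and 42.4 FPKM with serum (-0.71 ± 0.17, adjusted p = 0.0217). In both the libraries of a condition sat close together and apart from the other condition, and without each G13R library the adjusted p was 0.0704, 0.116, 0.0988 and 0.106 for NOLC1 and 0.109, 0.0951, 0.102 and 0.118 for RRP9. Of 20 cytosolic aminoacyl-tRNA synthetases 5 fell and 0 rose (median -0.21), with 1, 1, 1 and 0 in the reduced fits, and of 26 mitochondrial ribosomal protein genes 4 fell and 0 rose (median -0.19), with 1, 0, 0 and 0. Of 28 cytosolic ribosomal protein genes limma called 0, with 1 (RPL3) at an unadjusted p under 0.05, and their log2 fold changes ran from -0.07 to 0.27, with RPL3 at 917 and 994 FPKM in normal growth and 1148 and 1157 FPKM with serum (0.27 ± 0.08, adjusted p = 0.0503) at the top.

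Some chaperones fell as well. Of 24 heat shock and chaperonin genes 12 fell and 0 rose at a median of -0.32, with 6, 3, 3 and 5 in the reduced fits. HSPD1, the mitochondrial chaperonin, was at 469 and 479 FPKM in normal growth and 297 and 297 FPKM after serum (-0.67 ± 0.10, adjusted p = 0.00265), and its partner HSPE1 at 340.1 and 321 FPKM in normal growth and 220.5 and 239 FPKM with serum (-0.52 ± 0.08, adjusted p = 0.00317). HSP90AB1, the constitutive cytosolic HSP90, went from 1167 and 1242 to 824 and 858 FPKM (-0.52 ± 0.07, adjusted p = 0.00219). In all 3 the serum libraries were below the normal growth libraries with no overlap, and the calls held in all 16 alternatives. Among the 12 were TCP1, CCT3, CCT5 and CCT8, subunits of the TRiC chaperonin that folds actin. Of 20 chaperones of the endoplasmic reticulum 1 rose and 1 fell, with 0, 1, 1 and 0 rises and 0, 0, 0 and 0 falls in the reduced fits.

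POLR2A, the catalytic subunit of RNA polymerase II (chr17:7387685-7417933), was at 472 and 479 FPKM in normal growth and 350.5 and 324 FPKM after serum. Both serum values were lower, with a log2 fold change of -0.50 ± 0.07 (adjusted p = 0.00259) that stayed called in all 16 alternatives. It was 1 of 5 genes that fell among 25 for RNA polymerase II and elongation, where 0 rose and the median was -0.14, and 1, 1, 1 and 1 fell in the reduced fits. Of 24 mitosis genes 4 fell (AURKA, PLK1, MAD2L1 and PTTG1) and 0 rose, with log2 fold changes from -0.33 to -0.50 and 1, 1, 0 and 0 falls in the reduced fits. Of 27 DNA replication genes 1 fell, RFC3, from 22.5 and 22.2 to 14.9 and 17.2 FPKM (-0.46 ± 0.12), a call lost in all 4 reduced fits (adjusted p = 0.148, 0.132, 0.219 and 0.0864).

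**Figure D3:**
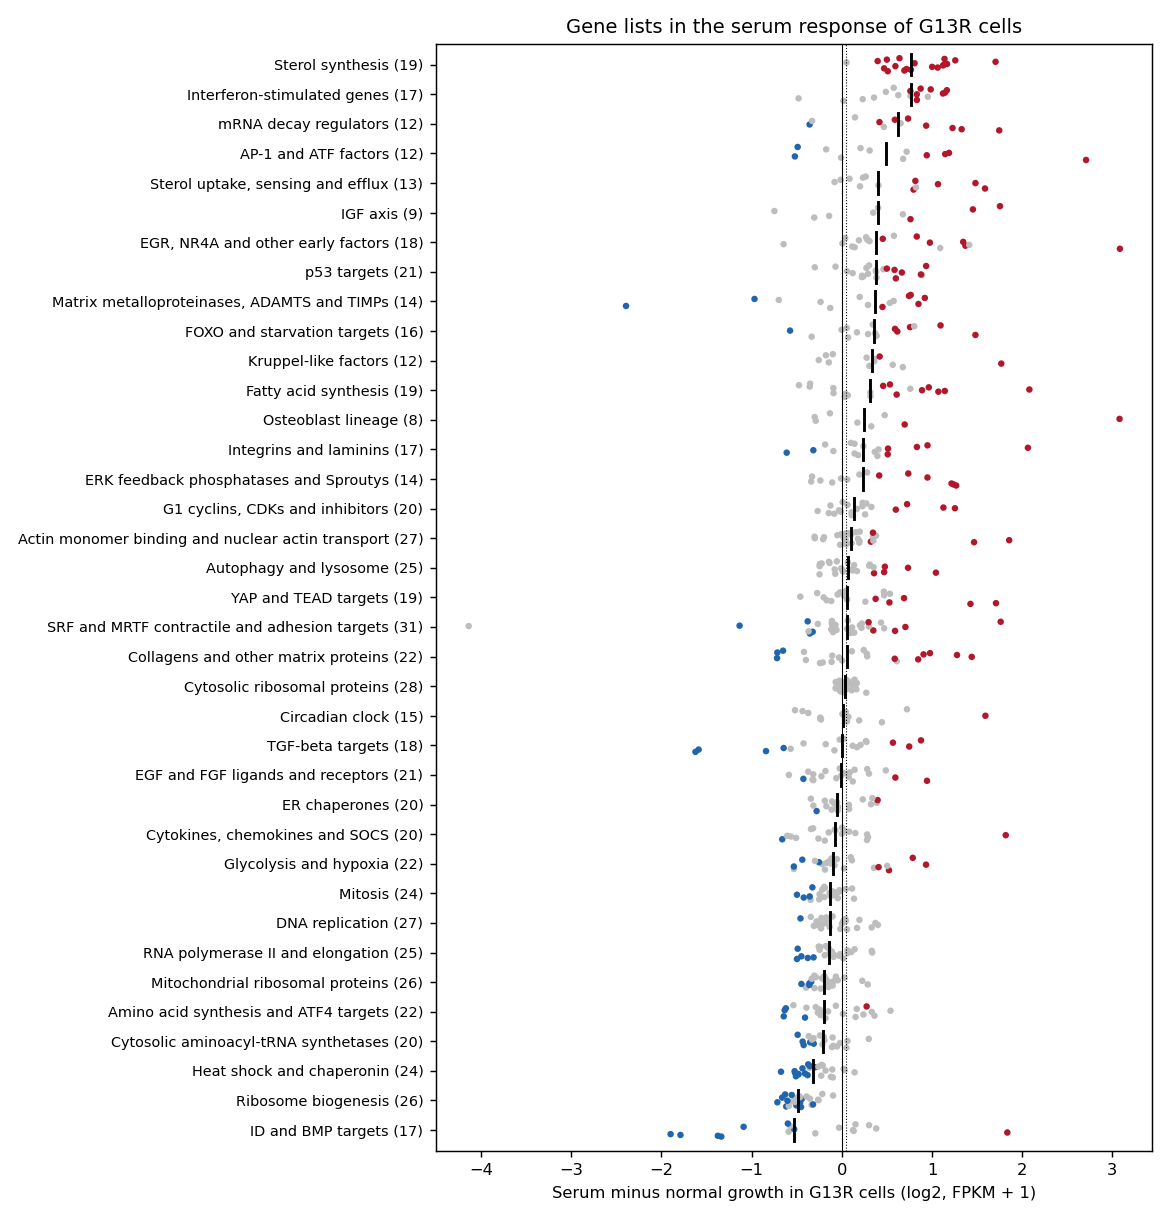
Each point is 1 tested gene of a list (number tested in brackets), placed by its serum minus normal growth difference in G13R cells on the log2(FPKM + 1) scale, red where called higher, blue where called lower and grey where not called. Black bars are list medians, from 0.77 for sterol synthesis to -0.53 for the ID and BMP genes, and the dotted line is the median of all tested genes, 0.04. The grey point near -4 is FLNA, listed at 0 in 1 serum library.

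The GFP control cells received the same comparison, with libraries of their own. Of the genes called in G13R cells, those higher had a median log2 fold change of 0.73 in G13R cells and 0.67 in GFP cells, and those lower had -0.49 and -0.60. Those genes were chosen by their G13R log2 fold changes, with a filter and an estimate of spread to which the GFP libraries also contributed. The highest list medians in G13R cells were 0.77 for sterol synthesis, 0.76 for interferon-stimulated genes and 0.62 for mRNA decay regulators. In GFP cells those lists had 1.3, 0.77 and 1.27. The lowest were -0.53 for ID and BMP genes, -0.49 for ribosome biogenesis and -0.32 for heat shock and chaperonin genes. Those had -0.29, -0.95 and -0.55 in GFP cells. Differences between list medians were not tested. A test of the difference between the responses called 0 of 12996 genes with limma, with a smallest adjusted p of 0.259, and 1533 genes had an unadjusted p under 0.05. That count rose when GFP serum replicate 1 was left out and stayed the same without GFP serum replicate 2. The pair of GFP serum libraries was the least alike of the 4, with 186 genes at least 2-fold apart in FPKM + 1. With 1 of these libraries left out, the other is assumed to vary like the remaining groups.

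Some of the genes called in G13R cells that had the smallest p in that difference each way are given as values. FOS stood at 4.84 and 6.7 FPKM in normal growth and 37.7 and 48.7 FPKM with serum in G13R cells and at 4.04 and 4.61 FPKM in normal growth and 109.8 and 243 FPKM with serum in GFP cells. Its level after serum was lower in both G13R libraries than in either GFP library. The G13R response minus the GFP response was -2.24 ± 0.42 (adjusted p = 0.259, limma), and -2.81 without GFP serum replicate 1. AKR1C3 (1.38 ± 0.17 in G13R cells and 2.58 ± 0.17 in GFP cells) and PNRC1, a cofactor of mRNA decapping (0.74 ± 0.17 and 1.93 ± 0.17), also had the smaller value in G13R cells. UCA1, a long noncoding RNA, had -1.54 ± 0.18 in G13R cells against -0.33 ± 0.18 in GFP cells, and ADAM19, a membrane proteinase, -0.98 ± 0.11 against -0.20 ± 0.11. In the other direction SLCO2B1, an organic anion transporter, was at 2.59 and 2.72 FPKM in normal growth and 9.15 and 6.61 FPKM with serum in G13R cells (1.27 ± 0.20) and at 2.79 and 3.69 FPKM in normal growth and 3.44 and 3.05 FPKM with serum in GFP cells (0.01 ± 0.20). PITPNM1, a lipid transfer protein, had 0.90 ± 0.12 in G13R cells and 0.11 ± 0.12 in GFP cells, and EHMT1, a histone methyltransferase, 0.60 ± 0.12 and -0.19 ± 0.12. POLR1E, a subunit of RNA polymerase I, fell with -0.39 ± 0.09 in G13R cells and had -0.95 ± 0.09 in GFP cells. None of these differences passed over all 8 libraries. Without GFP serum replicate 1 the difference was -1.31 for AKR1C3, -1.39 for PNRC1, -1.28 for UCA1 and -0.804 for ADAM19. In the other direction it was 0.832 for PITPNM1, 0.803 for EHMT1, 0.615 for POLR1E and 1.32 for SLCO2B1. That fit rests on 1 GFP serum library, and the genes were named for a small p in these same data. FOSB, not called in G13R cells, had a difference of -2.66 ± 0.46 between the responses (adjusted p = 0.259), with 0.68 ± 0.32 in G13R cells and 3.34 ± 0.32 in GFP cells.

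**Figure D4:**
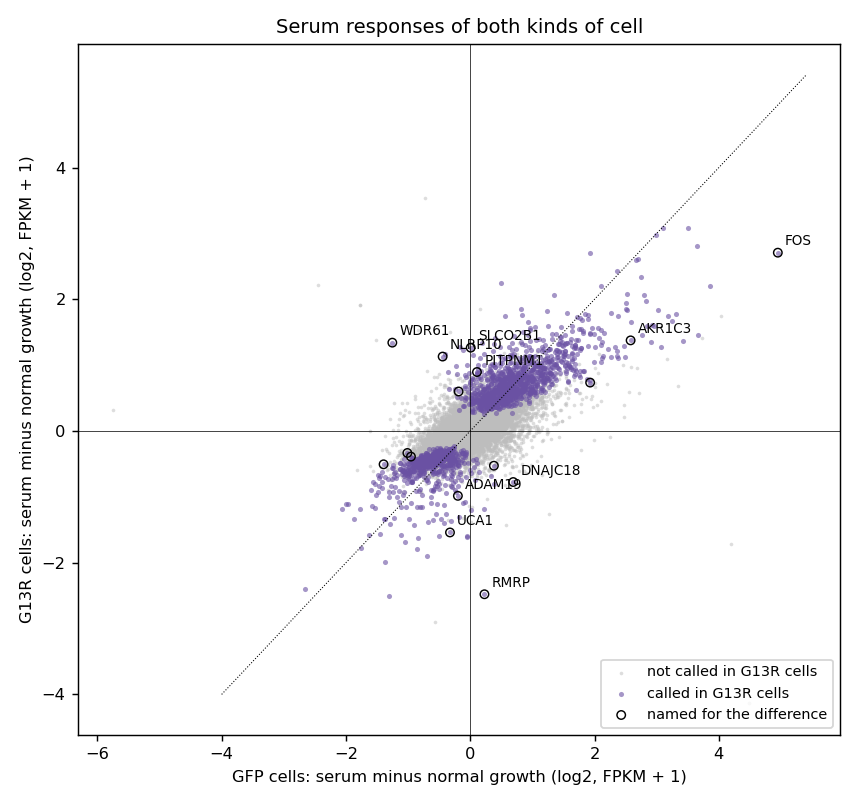
Each point is 1 tested gene, with its serum minus normal growth difference in GFP cells across and in G13R cells up, both on the log2(FPKM + 1) scale. Purple points are called in G13R cells, the dotted line marks equal responses, and circles mark the genes named for the difference. FOS lies below the line, at 2.71 in G13R cells and 4.95 in GFP cells, and SLCO2B1 above it, at 1.27 and 0.01.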

How the data were processed

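Per the labels' protocols, 8 poly(A)-enriched U2OS libraries were sequenced on an Illumina HiSeq. The authors deposited 1 table of FPKM values per gene and library. TopHat2 2.0.13, Cufflinks 2.2.1 and the builds hg19 and BDGP5 are named in the submitters' processing notes, and the gene annotation is not given in the sources used. Column names tied each column to its library, C being taken to stand for normal growth. FPKM keeps no read counts, and whole reads could not be recovered from the low values, so the depth is unknown and intervals for counting error are not given. Reads split between alike, overlapping or antisense genes make their values uncertain. Gene starts in the table count from 0, so 1 was added. In 28 rows the symbol had become a date, and such genes entered the tests without being named.

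limma 3.58.1 (R 4.3.3) was fitted to log2(FPKM + 1) with an intensity trend, 1 mean per group over all 8 libraries, 4 residual degrees of freedom and Benjamini-Hochberg adjustment over 12996 genes. Calls had an adjusted p under 0.05, and log2 fold changes are given ± SE on this scale, which understates the change of low genes. The fit was tested on simulated data. The 37 gene lists (785 members, 720 of them tested) and all other members were chosen with earlier results of these data known. Named genes were the 20 largest called changes each way with a mean of at least 2 FPKM and a proper symbol. These largest changes also had to show no overlap between the G13R conditions. Up to 4 called genes per list (2 where none was called) were named as well. Of the genes called in G13R cells, the 8 each way of smallest p in the difference of responses were added. So were genes called in opposite directions in the 2 responses, and FOS, FOSB, JUN, EGR1, SRF, MYC, ACTB and POLR2A. Other list members are named where a list's calls are counted out, chosen after their values were seen. A few genes that the rule selects are not reported here. The 16 alternatives changed the pseudocount, filter, scaling, trend, libraries or replicate block. Promoters came from RefSeq (GRCh38.p14), a different build from the table's hg19. They matched 79.1% of tested genes, 78.8% of those at least 2-fold higher and 68.5% of those at least 2-fold lower, so a comparison of motif shares between gene sets is void and not given.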

Additional observations from a re-analysis of the deposited data

Results flagged for a closer look

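DNAJC18, NOG and WDR61 were called in both kinds of cell in opposite directions, and for none of them did the difference of the responses pass the test over all 8 libraries (adjusted p = 0.259 for each, limma). NOG was at 40.3 and 41.6 FPKM in G13R normal growth and 27.8 and 28.4 FPKM after serum, and at 25.7 and 26.3 FPKM and then 32.0 and 36.5 FPKM in GFP cells. The G13R response minus the GFP response was -0.908. DNAJC18, a co-chaperone gene, went from 2.92 and 2.12 FPKM to 1.18 and 0.922 FPKM in G13R cells and from 0.709 and 0.921 FPKM to 1.82 and 2.04 FPKM in GFP cells, a difference of -1.47. WDR61, a subunit gene of the PAF1 and SKI complexes, went from 1.26 and 0.433 FPKM to 5.02 and 2.46 FPKM in G13R cells and from 2.82 and 1.09 FPKM to 0.404 FPKM and a listed 0 in GFP cells, a difference of 2.6. Levels of WDR61 and DNAJC18 were low throughout. Without GFP serum replicate 1 the difference was -1.0 for NOG, 2.84 for WDR61 and -1.52 for DNAJC18. That fit rests on 1 GFP serum library, and the 3 genes were picked by their calls in these same data. Their calls in G13R cells were lost without each G13R library: in the order normal growth replicate 1, normal growth replicate 2, serum replicate 1 and serum replicate 2, the adjusted p was 0.0574, 0.0642, 0.0715 and 0.0666 for NOG, 0.218, 0.0763, 0.119 and 0.188 for DNAJC18, and 0.0801, 0.221, 0.26 and 0.0667 for WDR61.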

How the results depend on the processing

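The counts of calls moved with the processing. Without the low-value filter 601 genes were higher and 331 lower (932 in all), without the intensity trend 268 were lower and 1071 were called in all, and with a 2-fold minimum 241 were higher and 54 lower (295 in all). Leaving out 1 library at a time, over all 8 libraries, gave 299 to 1427 genes higher, 110 to 931 lower and 412 to 2353 in all. The low ends came without a G13R library, which leaves a group with 1 library assumed to vary like the others, and the high ends without a GFP serum library. The difference of responses had 1 call with a pseudocount of 0.1, 2 with quantile normalization, and 0 to 486 with 1 library left out, 486 being without GFP serum replicate 1. The replicate block gave 1797 calls (1145 higher, 652 lower) against 1675; the labels do not say that a number pairs libraries, and same-numbered G13R libraries deviated from their group means with r = 0.0169. Scaling by median ratio gave 1001 higher and 787 lower, and quantile normalization 903 and 668. Of the 167 named genes that were called, all kept their direction and 82 kept their call in every alternative. Over the 172 named genes, 2296 of 2746 alternative values stayed on the same side of the threshold, 441 lost the call, 9 gained it and 0 reversed. The median kept its sign in all alternatives for 30 of 37 lists, the exceptions lying near 0: the circadian, EGF and FGF, cytokine, collagen, SRF and MRTF, TGF-beta and cytosolic ribosomal protein lists. The cause of these changes was not tested. With 2 libraries a group and no known depth, small changes of low genes are the least certain.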
